A study of Mus musculus with 16 samples.

Results

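The peroxisome proliferator-activated receptors (PPARs) and the regulators of mitochondrial biogenesis were followed in p53-/-; Myc hepatoblasts under sorafenib. They were 10 genes chosen by name, Ppara, Ppard, Pparg, Rxra, Ppargc1a, Ppargc1b, Esrra, Nrf1, Tfam and Angptl4, of the 40840 genes with a row in the count table. All 10 passed the filter of at least 10 counts over all libraries, which kept 20444 genes, although Ppara passed it with 82 counts in total. The cells are a mouse line, treated here as a culture model of hepatocellular carcinoma, and all 4 groups, controls included, carry the p53 loss and the Myc overexpression. The groups were the vehicle DMSO for 48 hours, sorafenib for 48 hours, DMSO for 7 days and sorafenib for 7 days, with 4 libraries each, and the sorafenib dose given in the methods was 8.5 µM. The comparison asks how the multikinase inhibitor alters the transcripts that control fatty acid use and mitochondrial content.

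PPARs are nuclear receptors that bind fatty acids and their derivatives and switch on genes of lipid uptake, storage and oxidation. Each acts as a pair with a retinoid X receptor, such as RXRα, the product of Rxra. The coactivators PGC-1α and PGC-1β, encoded by Ppargc1a and Ppargc1b, bind these receptors as well as the estrogen-related receptor ERRα (Esrra) and the nuclear respiratory factor NRF1, which act on nuclear genes of the respiratory chain and on Tfam. TFAM in turn packages mitochondrial DNA and starts its transcription, and Angptl4, a secreted inhibitor of lipoprotein lipase, is a widely used readout of PPAR activity. In liver, PPARα and PGC-1α are best known for the response to fasting, and PPARγ for fat storage.

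Upstream sequences were taken from RefSeq (table of build GRCm38.p6), which held 12 promoter windows for 8 of the 10 genes, and each window matched GRCm39 at 1 place. The first shown is the 250 bases before the Ppargc1a start, since this gene fell most at 7 days (chr5:51725068-51725317, minus strand, 1 base inside an annotated GENCODE exon). The second is the 250 bases before an internal start of Rxra, a partner receptor that fell at both times (chr2:27599054-27599303, plus strand, no base inside an exon, within the gene). The others are 30-base stretches around motif matches of Pparg, the member with the largest called rise, and of Ppara and Esrra (chr6:115338067-115338096, plus; chr15:85619936-85619965, plus; chr19:6899191-6899220, minus), because their windows overlap annotated exons. Capitals mark a nuclear receptor hexamer (AGGTCA, either strand) in Rxra and Pparg, the NRF1 core (GCATGCGC) in Esrra and the NRF1 element, the same core with GC before it, in Ppara. All run from 5′ to 3′ on the strand of the gene.
Ppargc1a: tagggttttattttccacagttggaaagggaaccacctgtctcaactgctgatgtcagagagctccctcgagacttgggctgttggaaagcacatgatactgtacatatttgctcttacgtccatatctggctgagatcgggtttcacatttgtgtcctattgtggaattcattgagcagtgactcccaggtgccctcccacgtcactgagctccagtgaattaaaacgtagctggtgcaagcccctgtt
Rxra, internal start: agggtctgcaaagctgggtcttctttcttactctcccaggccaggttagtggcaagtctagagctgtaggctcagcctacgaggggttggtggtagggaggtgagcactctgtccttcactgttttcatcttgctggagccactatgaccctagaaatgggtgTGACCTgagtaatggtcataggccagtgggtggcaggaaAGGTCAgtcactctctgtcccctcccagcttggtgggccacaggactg
Pparg: ccgccgcctcAGGTCAgagtcgccccgggc
Ppara: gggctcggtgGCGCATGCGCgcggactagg
Esrra: cccctgttttGCATGCGCaggccggccccg

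Motifs were searched on both strands of the 300-base windows, the 50 bases after the start included. The hexamer AGGTCA was in 3 of the 12 windows, 2 of Pparg and 1 of Rxra, and 16.3% of all 32851 mouse windows held it. The direct repeat of the hexamer with any 1 base between the copies, an element bound by PPAR and RXR pairs, was in no window of the members and in 0.0396% of all windows. Neither TCAAGGTCA, the ERR element, nor the cyclic AMP response element TGACGTCA matched in a member, against 0.423% and 1.79% of all windows. The NRF1 element stood 31 to 22 bases before the Ppara start, and the core, which lies inside the element, 34 to 27 bases before the Esrra start. All windows held the element in 0.971% and the core in 2.71% of cases.

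Total counts per library ranged from 16586254 to 30828427. Values are normalized counts, that is counts scaled for library total and composition, and a count of 3 corresponds to 2.44 to 4.54 of them. With genes in genome order, 1 library, replicate 2 of sorafenib for 48 hours, dropped to 0.605 times its earlier level on chromosome 14 and stayed low through chromosomes 15 to 19 and X. That stretch took 14.3% of its counts against 20.8 to 21.6% in the other libraries, and it holds 5 members, Ppara, Ppard, Ppargc1b, Esrra and Angptl4, for which values without this library are also given. Outside the stretch, this library was the highest of its group for Rxra, Ppargc1a and Nrf1. Their log2 fold changes at 48 hours without it are given as well. Replicate 4 of DMSO at 7 days also stood apart, with a chi-square per gene of 41.4 to 55.0 against its group, where the other 3 differed from each other by 1.78 to 2.79, and with 6.26% of its counts in its 10 most abundant genes against 3.83 to 3.87% in those 3. Without it the counts of members called in each direction were the same in every comparison except the interaction of treatment and time, where Nrf1 was lost (edgeR FDR 0.0818). With DMSO at 48 hours, replicates 1 and 4 differed from each other by 4.19 and replicates 2 and 3 by 4.83, but the 2 pairs differed by 14.4 to 32.7, with 4.63 and 4.93% against 6.75 and 6.05% of counts in the 10 most abundant genes. Of the markers listed for hepatoblasts, Dlk1, Igf2, Krt19, Sox9 and Foxa2 were expressed, but Hnf4a was at 0 in all libraries and Afp had at most 14 counts. Albumin had at most 1 count in any library, and 8 of 9 mature hepatocyte markers at most 10. The summed hepatoblast markers ran from 74660 to 80300 normalized counts with DMSO and from 24245 to 27076 with sorafenib at 48 hours, and from 46071 to 50161 and from 10023 to 10218 at 7 days. Dlk1 and Igf2, with up to 38122 and 50797 raw counts, led this sum, and the next, Krt19, had at most 3013. The sum therefore does not show how the other hepatoblast markers moved. The 6 fibroblast and stellate markers, led by the collagens Col1a1 and Col3a1 and with Lrat at 0, summed to 115782 to 117611 with DMSO and 125857 to 139163 with sorafenib at 48 hours, and to 89674 to 94289 and 63509 to 65051 at 7 days. The 4 endothelial markers, of which Pecam1 and Cdh5 had at most 9 and 2 counts, summed to 45.9 to 77.6 and 119 to 151 at 48 hours, and to 33.5 to 50.1 and 195 to 230 at 7 days. The 5 macrophage and leukocyte markers, with Adgre1 at 0 and Ptprc at most 4 counts, summed to 75.5 to 88.0 and 61.9 to 89.8 at 48 hours, and to 125 to 157 and 75.2 to 86.9 at 7 days. The 9 mature hepatocyte markers summed to 0 to 2.93 and 14.3 to 24.2 at 48 hours, and to 3.43 to 12.1 and 6.75 to 21.0 at 7 days, and the 5 adipocyte markers to at most 4.89 in any library. The part of these differences in the results below was not tested, and in bulk RNA fewer cells of a type and less RNA per cell cannot be told apart. Trp53 had 1268 to 4799 and Myc 4226 to 17797 counts in every library, and counts on Trp53 do not show whether its protein is lost.

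At 48 hours, 8 of the 10 genes differed between sorafenib and DMSO by edgeR's quasi-likelihood test (false discovery rate, FDR, under 0.05, Benjamini-Hochberg over all tested genes), 3 higher and 5 lower. With library totals in place of TMM, 2 were higher and 6 lower, beside 4882 higher and 6481 lower of all 20444 tested genes. The share of all genes called in this comparison was 54.6%, 26.9% higher and 27.7% lower. At 7 days 7 differed, 2 higher and 5 lower, where 56.8% of all genes did, 28.9% higher and 27.9% lower, and with library totals 3 members were higher and 5 lower, beside 6114 and 5414 of all genes. When a log2 fold change of 1 or more in size was also required, 2 of the 10 were called at 48 hours (18.0% of all genes) and 1 at 7 days (20.6%). The 4 genes with groups that did not overlap at 48 hours were Pparg, Rxra, Ppargc1a and Angptl4 (48.0% of all genes), and at 7 days 8 of the 10 did not overlap (56.8% of all genes). Without the library with the lowered stretch, 7 of the 10 did not overlap at 48 hours (55.5% of all genes). Pparg was the largest called rise at both times, Angptl4 the largest fall at 48 hours and Ppargc1a the largest fall at 7 days. The median log2 fold change of the 10 was −0.15 at 48 hours and −0.30 at 7 days, beside −0.05 and 0.02 over all tested genes.

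**Figure D1:**
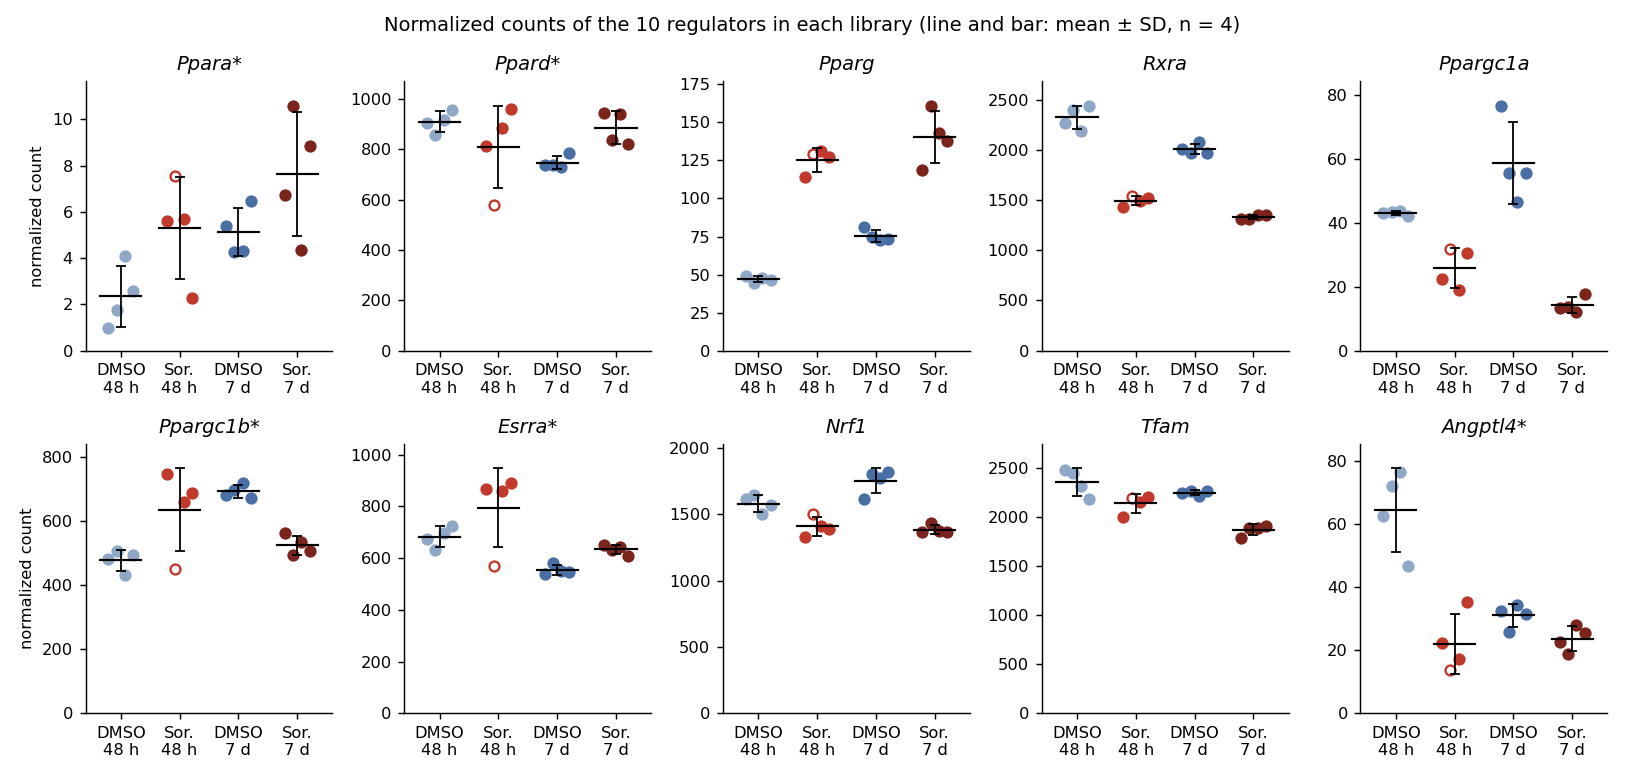
Normalized counts (y axis, from 0) of the 10 genes in each of the 16 libraries, by group (x axis); points are libraries, lines and bars the mean ± SD (n = 4). The open symbol is replicate 2 of sorafenib for 48 hours, and an asterisk marks the 5 genes in its lowered stretch, where it is the lowest library of its group for Ppard, Ppargc1b, Esrra and Angptl4 but not for Ppara.

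Among the receptors, Ppara, the fatty acid oxidation receptor of liver, was close to the detection floor (chr15:85618656-85687067, plus strand, GRCm39 as all gene positions here, from GENCODE). Its raw counts in replicates 1 to 4 were 1, 2, 4 and 3 with DMSO and 4, 5, 6 and 2 with sorafenib at 48 hours. At 7 days they were 5, 5, 5 and 7 with DMSO and 6, 13, 5 and 9 with sorafenib. The groups overlapped at both times, and the gene was not called, with edgeR FDRs of 0.0729 (log2 fold change 1.11, standard error 0.51) and 0.217 (0.58, 0.39). Leaving out replicate 3 of DMSO or replicate 4 of sorafenib at 48 hours brought the edgeR FDR at 48 hours to 0.0406 or 0.0340, and without the library with the lowered stretch it was 0.221 (log2 fold change 0.93). Ppara shares 1803 bases of exon with Cdpf1 on the opposite strand, and the strand setting of the counting is not given in the sources used here, so its few counts are uncertain in origin.

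Ppard, which encodes the broadly expressed PPARδ (chr17:28451674-28520448, plus strand), was the most abundant PPAR. With DMSO at 48 hours its normalized counts were 906, 856, 916 and 957 in replicates 1 to 4, and with sorafenib 815, 579, 885 and 959. The 579 is the library with the lowered stretch, and the other libraries with sorafenib lay inside or near the DMSO range. The gene was not called at 48 hours (log2 fold change −0.16, edgeR FDR 0.189), and the value without that library was −0.03. It was called lower without replicate 4 of sorafenib at 48 hours (−0.28, edgeR FDR 0.0225) and with library totals (−0.23, edgeR FDR 0.0346). At 7 days the counts were 738, 739, 729 and 784 with DMSO and 943, 838, 940 and 820 with sorafenib. Every library with sorafenib was above every library with DMSO, by a log2 fold change of 0.24 ± 0.10 (standard error; edgeR FDR 0.0369). Without the library with the lowered stretch, whose spread enters the shared model, the edgeR FDR was 2.37e-05. It was between 0.0508 and 0.101 without replicate 1 or 3 of DMSO at 48 hours, replicate 1 of sorafenib at 48 hours, replicate 1, 2 or 3 of DMSO at 7 days, or replicate 1 or 3 of sorafenib at 7 days.

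Pparg, which encodes the receptor of fat storage and the target of the glitazones (chr6:115337675-115468268, plus strand), rose under sorafenib at both times. Its normalized counts at 48 hours were 48.9, 44.2, 48.0 and 46.7 with DMSO and 114, 129, 131 and 127 with sorafenib. At 7 days they were 81.1, 74.5, 72.5 and 73.3 with DMSO and 119, 161, 143 and 138 with sorafenib. Groups did not overlap at either time, and the lowest library with sorafenib, 114, was above the highest with DMSO, 81.1. The means rose from 46.9 ± 2.01 to 125 ± 7.88 (SD, n = 4) at 48 hours, 2.68-fold (log2 fold change 1.42, standard error 0.11, edgeR FDR 5.95e-10). At 7 days they rose from 75.3 ± 3.92 to 140 ± 17.1, 1.88-fold (0.91, 0.09, edgeR FDR 6.1e-08). An exact permutation (two-sided, 4 against 4) had p = 0.0286 for each time, the smallest value possible. The adipocyte markers Adipoq, Plin1, Cfd, Lep and Retn had at most 5 counts each in every library, with sums of 0 to 4.89 normalized counts.

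Rxra, a common partner (chr2:27566452-27653330, plus strand), fell by about the same amount at both times. It had 2264, 2400, 2186 and 2441 normalized counts with DMSO and 1430, 1539, 1490 and 1517 with sorafenib at 48 hours. At 7 days it had 2011, 1971, 2074 and 1970 with DMSO and 1314, 1316, 1352 and 1350 with sorafenib. No library with sorafenib reached the DMSO range at its own time. The log2 fold changes were −0.64 ± 0.04 (edgeR FDR 1.97e-11) and −0.59 ± 0.04 (edgeR FDR 5.84e-11). The difference between them was 0.05 with a standard error of 0.05, which was not called (edgeR FDR 0.559). Without the library with the lowered stretch, the log2 fold change at 48 hours was −0.65 (edgeR FDR 2.56e-21). Rxra thus fell while its partner Pparg rose in the same libraries.

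**Figure D2:**
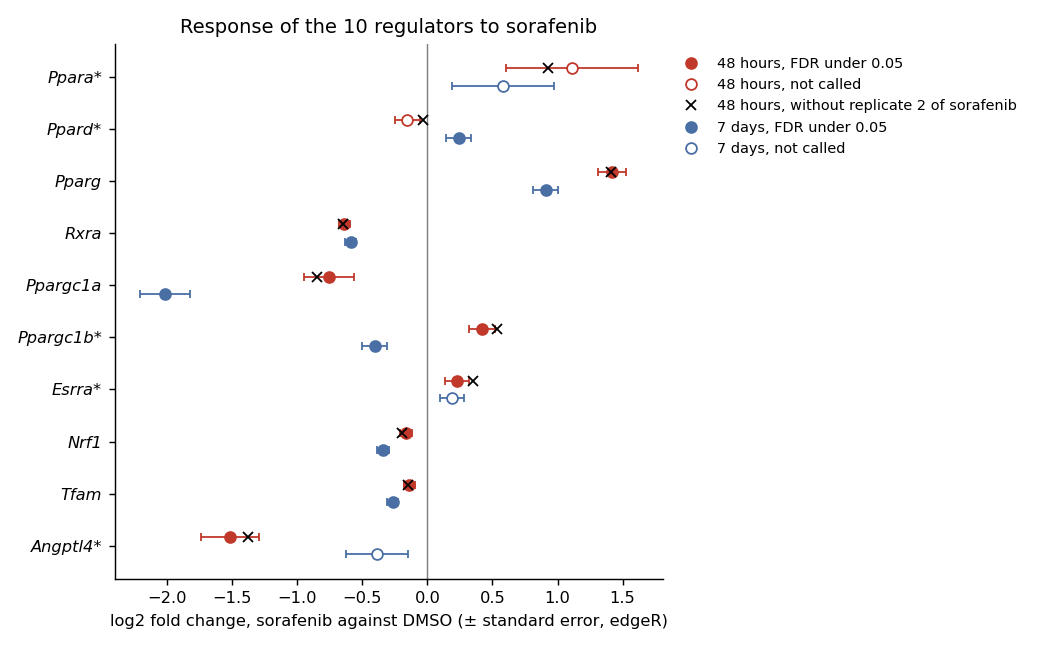
Log2 fold change of sorafenib against DMSO (x axis, ± standard error from edgeR) for the 10 genes (y axis) at 48 hours in red and 7 days in blue; filled symbols passed an FDR under 0.05, crosses are 48 hours without replicate 2 of sorafenib, and asterisks mark genes in its lowered stretch. Pparg stands at 1.42 and 0.91, Ppargc1a moves from −0.75 to −2.02, and Ppargc1b lies on opposite sides of 0 at 0.42 and −0.40.

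The coactivators did not move together. Ppargc1a, which encodes PGC-1α, the inducible coactivator of mitochondrial biogenesis and gluconeogenesis (chr5:51611592-51725068, minus strand, promoter printed above), fell at 48 hours and further at 7 days. Its normalized counts were 43.0, 43.4, 43.9 and 42.3 with DMSO and 22.4, 31.8, 19.04 and 30.7 with sorafenib at 48 hours. They were 76.8, 55.7, 46.6 and 55.7 with DMSO and 13.5, 13.8, 12.2 and 17.7 with sorafenib at 7 days. The groups were separate at both times, and the 4 libraries with sorafenib for 7 days were the lowest of all 16. The log2 fold changes were −0.75 ± 0.19 (standard error; edgeR FDR 0.00231) and −2.02 ± 0.19 (edgeR FDR 1.91e-08), to 0.593 and 0.247 times the DMSO level. The difference between the responses was −1.26 ± 0.28 (edgeR FDR 0.00138). Without the library with the lowered stretch, the log2 fold change at 48 hours was −0.85 (edgeR FDR 0.000739) and the difference −1.17 (edgeR FDR 0.00183).

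Ppargc1b, which encodes PGC-1β, the constitutive relative (chr18:61431195-61533735, minus strand), rose at 48 hours and fell at 7 days. At 48 hours it had 481, 506, 431 and 494 normalized counts with DMSO and 746, 451, 659 and 687 with sorafenib. The 451 is the library with the lowered stretch, and it alone lay in the DMSO range. The log2 fold change was 0.42 ± 0.10 (edgeR FDR 0.00135) with this library and 0.54 ± 0.06 (edgeR FDR 4.11e-11) without it. At 7 days the counts were 680, 697, 719 and 672 with DMSO and 562, 495, 534 and 506 with sorafenib, which did not overlap (−0.40 ± 0.10, edgeR FDR 0.00127). Over the same days the DMSO mean itself went from 478 ± 33.0 to 692 ± 21.0 and the sorafenib mean from 636 ± 129 to 524 ± 30.1 (SD, n = 4). The difference between the responses was −0.82 ± 0.14 (edgeR FDR 8.14e-05), and −0.94 without the library with the lowered stretch. The gene shares 279 bases of exon with Gm46627, a noncoding gene on the opposite strand.

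Esrra, which encodes ERRα, a receptor without a known natural ligand that works with the PGC-1 coactivators (chr19:6888338-6899336, minus strand), was modestly higher with sorafenib. At 48 hours it had 674, 630, 699 and 725 normalized counts with DMSO and 866, 569, 858 and 889 with sorafenib. Apart from the 569 of the library with the lowered stretch, every library with sorafenib was above every library with DMSO. The log2 fold change was 0.23 ± 0.09 (edgeR FDR 0.0403) with that library and 0.35 ± 0.05 (edgeR FDR 3.7e-08) without it, and with DESeq2 the first was not called (FDR 0.0740). With all libraries it was also not called with DESeq2's size factors (edgeR FDR 0.0584), library totals (0.16, edgeR FDR 0.133), at least 10 counts in every library (edgeR FDR 0.0823) or only the libraries compared (edgeR FDR 0.223). Without any 1 of the 4 DMSO libraries at 48 hours, or replicate 1, 3 or 4 of sorafenib at 48 hours, the edgeR FDR rose to between 0.0709 and 0.240. At 7 days the counts were 538, 582, 551 and 547 with DMSO and 652, 633, 642 and 610 with sorafenib, and the groups did not overlap. This difference (0.19 ± 0.09) was not called in the model of all 16 libraries (edgeR FDR 0.0884), but was without the library with the lowered stretch (0.19 ± 0.05, edgeR FDR 0.000709). It was also called with library totals (0.21, edgeR FDR 0.0422), a replicate block (edgeR FDR 0.0389) and an offset for that stretch (edgeR FDR 0.00121). The same held for limma voom with quality weights (limma FDR 0.00433) and only the libraries compared (edgeR FDR 0.000801). Esrra shares 1041 bases of exon with Trmt112 on the opposite strand, so reads of the 2 genes may not be told apart.

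Nrf1 and Tfam fell slightly at both times. Nrf1, which encodes an activator of nuclear respiratory genes (chr6:30047892-30153462, plus strand), had 1610, 1640, 1497 and 1568 normalized counts with DMSO and 1329, 1497, 1412 and 1389 with sorafenib at 48 hours. At 7 days it had 1614, 1801, 1773 and 1818 with DMSO and 1363, 1432, 1373 and 1365 with sorafenib. The groups were separate at 7 days but touched at 48 hours, where the highest library with sorafenib and the lowest with DMSO both stood at 1497. That sorafenib library was replicate 2, the one with the lowered stretch, and without it the groups did not overlap at 48 hours. The log2 fold changes were −0.17 ± 0.05 (edgeR FDR 0.00382) and −0.34 ± 0.04 (edgeR FDR 1.5e-06). The change at 7 days corresponds to 0.790 times the DMSO level. Without the library with the lowered stretch, the log2 fold change at 48 hours was −0.195 (edgeR FDR 3.33e-05).

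Tfam, which encodes the mitochondrial DNA packaging and transcription factor (chr10:71061287-71074110, minus strand), had 2484, 2452, 2318 and 2179 normalized counts with DMSO and 2002, 2194, 2152 and 2208 with sorafenib at 48 hours. These groups overlapped, with a log2 fold change of −0.14 ± 0.04 (edgeR FDR 0.00834) that was not called when no filter on low counts was applied (−0.10, edgeR FDR 0.0577). At 7 days the counts were 2242, 2269, 2217 and 2263 with DMSO and 1788, 1889, 1892 and 1911 with sorafenib. Every library with sorafenib was below every library with DMSO, by −0.26 ± 0.04 (edgeR FDR 1.85e-05), to 0.832 times the DMSO level.

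Angptl4, the secreted lipase inhibitor (chr17:33992724-34000804, minus strand), fell at 48 hours. Its normalized counts were 62.6, 72.0, 76.6 and 46.7 with DMSO and 22.4, 13.6, 17.1 and 35.2 with sorafenib. The groups were separate, and the mean went from 64.4 ± 13.2 to 22.1 ± 9.46 (SD, n = 4), 0.350 times the DMSO level (log2 fold change −1.52 ± 0.23, edgeR FDR 8.25e-06). Without the library with the lowered stretch, which had 9 raw counts, the log2 fold change was −1.38 ± 0.22 (edgeR FDR 2.66e-07). At 7 days the counts were 32.4, 25.7, 34.5 and 31.5 with DMSO and 22.5, 18.7, 28.0 and 25.6 with sorafenib. These overlapped and were not called (−0.39 ± 0.24, edgeR FDR 0.174). The response differed between the times by 1.13 ± 0.33 (edgeR FDR 0.0114), and the DMSO mean at 7 days was 31.05 ± 3.78. Angptl4 and Pparg thus stood on opposite sides of 0 at 48 hours.

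The response to sorafenib differed between 48 hours and 7 days for 6 of the 10 genes, 2 with a higher and 4 with a lower log2 fold change at 7 days. This interaction of treatment and time called 36.8% of all genes, 15.5% higher and 21.3% lower. Scaling by library totals turned that balance, with 4125 genes higher and 3292 lower in place of 3162 and 4353, and called 2 members higher and 3 lower. Besides Ppargc1a, Ppargc1b and Angptl4, Pparg responded less at 7 days, by −0.51 ± 0.15 (edgeR FDR 0.00867). Ppard responded by 0.40 ± 0.14 more (edgeR FDR 0.0267), which was 0.27 without the library with the lowered stretch. The edgeR FDR of Ppard was 0.0555 without replicate 1 and 0.0571 without replicate 3 of sorafenib at 7 days. Nrf1 fell more at 7 days by −0.17 ± 0.06 (edgeR FDR 0.0380). That call was lost, with an edgeR FDR of 0.0635 to 0.157, without replicate 1, 3 or 4 of DMSO at 48 hours, 3 or 4 of sorafenib at 48 hours, 2, 3 or 4 of DMSO at 7 days, or 1, 3 or 4 of sorafenib at 7 days. It was also lost with DESeq2's size factors (−0.16, edgeR FDR 0.0559), library totals (−0.08, 0.392) and at least 10 counts in every library (−0.11, 0.141). For Ppara, Rxra, Esrra and Tfam no difference was called, with values of −0.53, 0.05, −0.04 and −0.12. With an offset for the lowered stretch 8 of the 10 were called, 2 higher and 6 lower, beside 3434 and 5248 of all 20444 genes. Esrra (−0.18, edgeR FDR 0.0382) and Tfam (−0.12, edgeR FDR 0.0483) were the added calls.

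The control cells changed over the days as well. Between 48 hours and 7 days with DMSO, 8 of the 10 genes differed, 4 higher and 4 lower at 7 days, where 49.4% of all genes did (23.9% higher, 25.5% lower). Scaled by library totals, 2 were higher and 5 lower (4119 and 5822 of all genes), since the rises of Nrf1 (0.09, edgeR FDR 0.115) and Ppargc1a (0.37, edgeR FDR 0.0641) were not called and Tfam was called lower (−0.13, edgeR FDR 0.0214). Groups did not overlap for 8 of the 10 (50.8% of all genes). Pparg rose by 0.68, Ppargc1b by 0.53, Ppargc1a by 0.43 and Nrf1 by 0.15 on the log2 scale, and Angptl4 fell by 1.05, Esrra by 0.30, Ppard by 0.28 and Rxra by 0.21. The rise of Ppargc1a (edgeR FDR 0.0290) was not called, with an edgeR FDR of 0.0517 to 0.128, without any 1 of the DMSO libraries at 48 hours or replicate 1 of DMSO at 7 days, whose 76.8 was the highest Ppargc1a value. The fall of Ppard had an edgeR FDR of 0.0560 without replicate 4 of DMSO at 48 hours, and the change of Tfam, not called with all libraries (−0.07, edgeR FDR 0.190), was −0.11 without it (edgeR FDR 0.0269). Without replicate 3 of DMSO at 48 hours Ppara, at 1.09 with all libraries (edgeR FDR 0.0701), was called at 1.44 (edgeR FDR 0.0346). With all libraries Ppara was called by limma voom with quality weights (1.08, limma FDR 0.0457), where 5 members were higher and 4 lower. That fit called 5509 of all 20444 genes higher and 5859 lower. Time in culture and anything else that differed between the cultures of the 2 times cannot be told apart.

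With sorafenib, 5 of the 10 genes were called lower at 7 days than at 48 hours and none higher, where 39.7% of all genes were called (17.5% higher, 22.3% lower). They were Ppargc1a (−0.83), Esrra (−0.34), Ppargc1b (−0.29), Tfam (−0.19) and Rxra (−0.16). Groups did not overlap for Ppargc1a, Tfam and Rxra (35.8% of all genes), and for 5 of the 10 without the library with the lowered stretch (45.2% of all genes). The value of Ppargc1b was −0.41 and that of Esrra −0.46 without the library with the lowered stretch. Ppargc1b was not called, with an edgeR FDR of 0.0526 to 0.166, without replicate 1 or 4 of DMSO at 48 hours, 1, 3 or 4 of sorafenib at 48 hours, or 2 or 4 of sorafenib at 7 days. With all libraries it was also not called by DESeq2 (FDR 0.0569), and its edgeR FDR was 0.0516 with DESeq2's size factors, 0.0621 with at least 10 counts in every library and 0.195 with only the libraries compared. Esrra was not called with only the libraries compared either (edgeR FDR 0.105). Its edgeR FDR was 0.0506 without replicate 4 of sorafenib at 48 hours. Without that library 3 of the 10 genes were called, all lower, beside 3643 higher and 3983 lower of 20325 genes. Pparg, at 0.17 with all libraries (edgeR FDR 0.156), was called without replicate 1 of sorafenib at 7 days (0.23, edgeR FDR 0.0420). It was also called with at least 10 counts in every library (0.22, edgeR FDR 0.0341). There 1 of the 8 members tested was higher and 4 lower, beside 3537 and 3631 of 12158 genes. Ppargc1a fell by 0.83 on the log2 scale with sorafenib between the times while it rose by 0.43 with DMSO.

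Levels were compared between genes as normalized counts per kilobase of exon, with exon lengths from GENCODE. With DMSO at 48 hours, Tfam was highest at 501 ± 29.6 (SD, n = 4), followed by Rxra at 338 ± 17.3, Nrf1 at 145 ± 5.70, Esrra at 137 ± 8.12, Ppard at 121 ± 5.53 and Ppargc1b at 82.7 ± 5.71. Angptl4 at 14.3 ± 2.94, Pparg at 6.74 ± 0.289 and Ppargc1a at 6.11 ± 0.0927 were far lower, and Ppara had 0.356 ± 0.202. The spreads of Nrf1 and Esrra overlapped in that order. Per kilobase, Ppard was 18.0 ± 0.774 times Pparg with DMSO and 6.02 ± 1.26 times Pparg with sorafenib at 48 hours, and 9.22 ± 0.606 and 5.94 ± 1.06 times at 7 days. Ppargc1b was 13.5 ± 1.07 times Ppargc1a with DMSO and 31.9 ± 11.8 times with sorafenib at 48 hours, and 14.9 ± 3.29 and 45.7 ± 8.25 times at 7 days. The ratio between receptors thus narrowed under sorafenib and that between coactivators widened, in ranges that did not overlap between treatments at either time. The library with the lowered stretch gave the lowest of both ratios with sorafenib at 48 hours, 4.18 and 17.3.

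**Figure D3:**
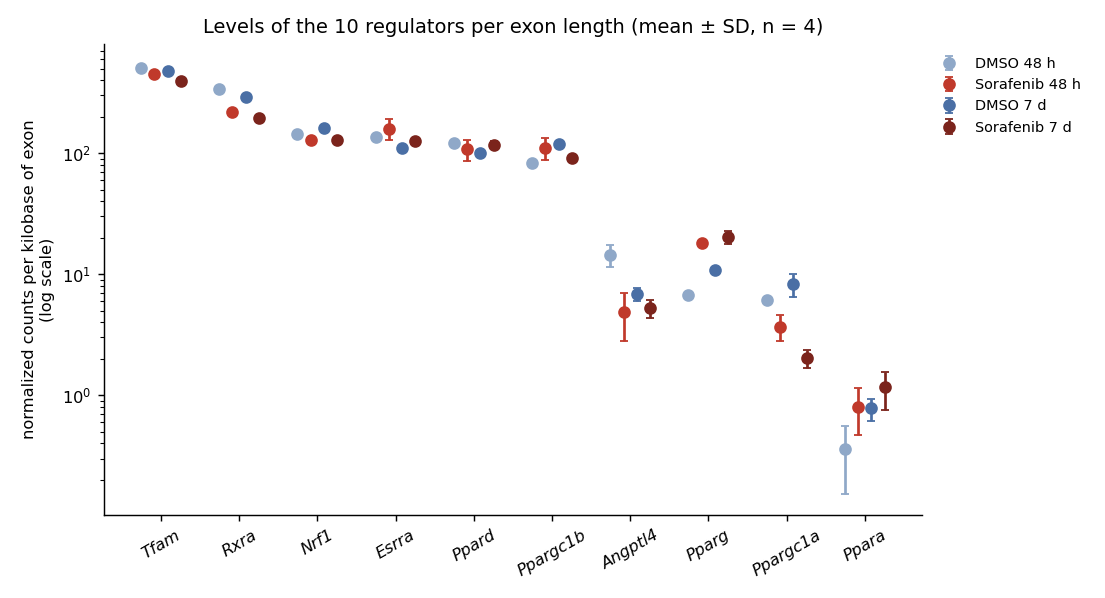
Mean ± SD (n = 4) of normalized counts per kilobase of exon (y axis, log scale) of the 10 genes (x axis, ordered by the DMSO level at 48 hours) in the 4 groups. Tfam and Rxra lead in every group, and Angptl4, Pparg, Ppargc1a and Ppara lie below the other genes in every group.

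Within each gene, the order of the 4 groups showed which neighbours differ. For Pparg it was DMSO 48 hours, DMSO 7 days, sorafenib 48 hours and sorafenib 7 days, and the last pair was not called apart (edgeR FDR 0.156). Each step was called for Rxra (sorafenib 7 days lowest, DMSO 48 hours highest) and for Ppargc1a (sorafenib 7 days lowest, then sorafenib 48 hours, DMSO 48 hours and DMSO 7 days). No step between neighbours was called for Ppard or Ppara. Angptl4 had only 1 called step, from DMSO 7 days to DMSO 48 hours (1.05, edgeR FDR 0.00017), and the sorafenib groups were the lowest.

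The genes whose log2 normalized counts were most like each member over 15 libraries, the one with the lowered stretch left out, are given as a description. They were Brox (Pearson r = 0.991) and Rragc (0.990) for Pparg, Cdc26 (0.995) and Numa1 (0.993) for Rxra, and Plekha5 (0.901) and Lrsam1 (0.897) for Ppard. For Ppargc1b they were 2610507B11Rik (0.957) and Gsta3 (0.955), for Esrra Plxna3 (0.977) and Mycl (0.970), for Nrf1 Mrpl42 (0.965), and for Tfam Rpl24 (0.981) and Ppp1cb (0.960). The 15 libraries share the 4 groups, so these values mostly reflect group means. Ppara, Ppargc1a and Angptl4 were too low for this measure.

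The wider pathway was described by 6 lists of genes. Of 33 tested PPAR target genes, 8 were higher and 10 lower at 48 hours, 54.5% in all, and 11 were higher and 11 lower at 7 days, 66.7%, beside 54.6% and 56.8% of all genes. Their median log2 fold changes were −0.15 and 0.02, beside −0.05 and 0.02 over all genes. The targets therefore moved both ways. Acot2, a mitochondrial acyl-CoA thioesterase with close paralogs whose reads may be shared, rose from 186 ± 20.9 to 1261 ± 23.8 normalized counts at 48 hours and from 134 ± 7.37 to 899.7 ± 9.37 at 7 days. Fgf21, a secreted hormone of the fasting and stress responses, rose from 8.67 ± 4.30 to 168 ± 17.7 and from 11.7 ± 4.79 to 28.9 ± 5.80 (log2 fold changes 4.27 and 1.31). Ucp2, an inner membrane carrier, fell from 2162 ± 42.3 to 842 ± 97.8 and from 692 ± 66.3 to 116 ± 10.97.

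Among targets of fatty acid oxidation, Cpt1a, the gatekeeper of mitochondrial fatty acid entry, fell by 0.80 at 48 hours (0.67 without the library with the lowered stretch) and by 0.35 at 7 days on the log2 scale. Pdk4, which restrains pyruvate oxidation, fell by 0.99 at 48 hours (edgeR FDR 0.0104, 20.9 ± 5.62 to 10.6 ± 2.69 normalized counts), and its value at 7 days was −0.66 (edgeR FDR 0.0831). Cd36, a fatty acid transporter, fell by 1.14 at 7 days, and Plin2, a lipid droplet coat protein, rose by 0.38 at 7 days. Their values at 48 hours, 0.25 and −0.09, were not called (edgeR FDR 0.253 and 0.0836), although that of Plin2 was called without the library with the lowered stretch (−0.12, edgeR FDR 0.0132).

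Of 22 co-regulators and upstream regulators, 7 were higher and 7 lower at 48 hours (63.6%, beside 54.6% of all genes). At 7 days 6 were higher and 7 lower (59.1%, beside 56.8% of all genes). Library totals gave 5 and 8 at 48 hours. The medians were −0.02 and −0.01, beside −0.05 and 0.02 over all genes. Lpin1, a phosphatidate phosphatase and coactivator of PPARα, fell from 926 ± 126 to 321 ± 13.0 and from 584 ± 35.2 to 117 ± 19.6 normalized counts. Ncoa1, the steroid receptor coactivator SRC-1, rose by 1.01 and 0.95 on the log2 scale. Prkaa2, a catalytic subunit of the energy sensor AMPK, rose by 0.68 at 48 hours and fell by 1.15 at 7 days, with called changes in opposite directions as for Ppargc1b. Tfeb, a transcription factor of lysosomal genes that acts on Ppargc1a, fell by 0.46 (0.38 without the library with the lowered stretch) and 1.38. Pprc1, the PGC-1-related coactivator, had −0.02 and −0.10, neither called (edgeR FDR 0.835 and 0.278). Without the library with the lowered stretch it was called higher at 48 hours (0.09, edgeR FDR 0.00308) and lower at 7 days (−0.10, edgeR FDR 0.000318).

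Of 15 partners and targets of ERR, NRF1 and GABP, 3 were higher and 8 lower at 48 hours (73.3%), and 3 higher and 10 lower at 7 days (86.7%). Of all genes 54.6% and 56.8% were called, 27.7% and 27.9% lower. The medians were −0.12 and −0.23, beside −0.05 and 0.02 over all genes. Esrrg, a paralog of Esrra, fell from 110 ± 7.21 to 44.6 ± 10.6 and from 164 ± 17.1 to 24.2 ± 1.71 normalized counts, where Esrra itself did not fall. Cycs, cytochrome c, rose by 0.71 at 48 hours and fell by 0.16 at 7 days. Of the succinate dehydrogenase subunits, Sdhb rose by 0.50 and 0.19 and Sdhd fell by 0.46 and 0.80. Alas1, the first enzyme of haem synthesis, had 0.04 at 48 hours (edgeR FDR 0.538) and rose by 0.91 at 7 days.

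Of 19 genes of mitochondrial DNA transcription and maintenance, 9 were higher and 3 lower at 48 hours (63.2%, beside 54.6% of all genes). At 7 days 7 were higher and 4 lower (57.9%, beside 56.8% of all genes). The medians were 0.18 and 0.14, beside −0.05 and 0.02 over all genes. Scaling by library totals made the split 7 and 6 at 48 hours and 9 and 3 at 7 days. Without the library with the lowered stretch, which holds 5 of the 19, the counts were 8 and 3 and 9 and 4. Polrmt, the mitochondrial RNA polymerase that works with TFAM, fell by 0.36 and 0.55, and Twnk, the helicase, by 0.60 (0.46 without that library) and 0.49. Tfb2m, the other initiation factor, rose by 0.35 at 48 hours and had 0.14 at 7 days (edgeR FDR 0.159), and Tfb1m had −0.26 (edgeR FDR 0.0590; −0.13 without that library) and −0.18 (edgeR FDR 0.202). Lonp1, the matrix protease, rose from 5182 ± 126 to 11250 ± 2230 and from 3841 ± 36.2 to 11229 ± 179 normalized counts. Rrm2b, a ribonucleotide reductase subunit that supplies nucleotides to mitochondrial DNA, rose by 1.64 (1.77 without that library) and 1.24, and Top1mt, the mitochondrial topoisomerase, by 0.47 (0.59 without it) and 0.75. The 13 mitochondrially encoded mRNAs had no row in the count table under the symbols searched (mt-Nd1 and the others), so they were not analysed.

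Of 13 tested RXR paralogs and partner receptors, 1 was higher and 10 lower at 48 hours (84.6%). Of all genes 54.6% were called at 48 hours, 26.9% higher and 27.7% lower. At 7 days 4 were higher and 4 lower (61.5%, beside 56.8% of all genes). The medians were −0.43 and 0.04, beside −0.05 and 0.02 over all genes. The gene that rose at 48 hours was Nr1h4, the bile acid receptor FXR, which went from 36.8 ± 6.74 to 187 ± 25.3 normalized counts, and from 131 ± 9.61 to 208 ± 11.2 at 7 days. Rarb, a retinoic acid receptor, fell from 648 ± 27.7 to 75.3 ± 28.4 and from 224 ± 25.2 to 29.6 ± 1.95. Thra, a thyroid hormone receptor, fell by 0.57 and 0.98, and Vdr, the vitamin D receptor, had −1.10 (−0.91 without the library with the lowered stretch) and −0.58, both called. Rarg, another retinoic acid receptor, fell by 0.27 (0.16 without that library) at 48 hours and rose by 0.90 at 7 days.

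Of 12 tested ANGPTL4 relatives and genes of the lipoprotein lipase axis, 6 were called at 48 hours, 5 higher and 1 lower, beside 54.6% of all genes. At 7 days 10 were called, 7 higher and 3 lower (83.3%, beside 56.8% of all genes), with medians of 0.37 at 48 hours and 0.41 at 7 days. Lpl, the lipase that ANGPTL4 inhibits, rose from 2362 ± 65.2 to 6908 ± 280 and from 2711 ± 107 to 7075 ± 83.5 normalized counts, while Angptl4 was lower at 48 hours. Sel1l, an endoplasmic reticulum factor needed for lipase maturation, rose by 1.41 and 0.90. Angptl6, a relative of Angptl4, rose from 78.2 ± 4.74 to 916 ± 43.0 and from 41.6 ± 6.19 to 829 ± 42.5, and Angptl2 rose by 0.67 and 2.02. Lipg, endothelial lipase, had −0.04 at 48 hours (edgeR FDR 0.765) and fell by 3.05 at 7 days.

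**Figure D4:**
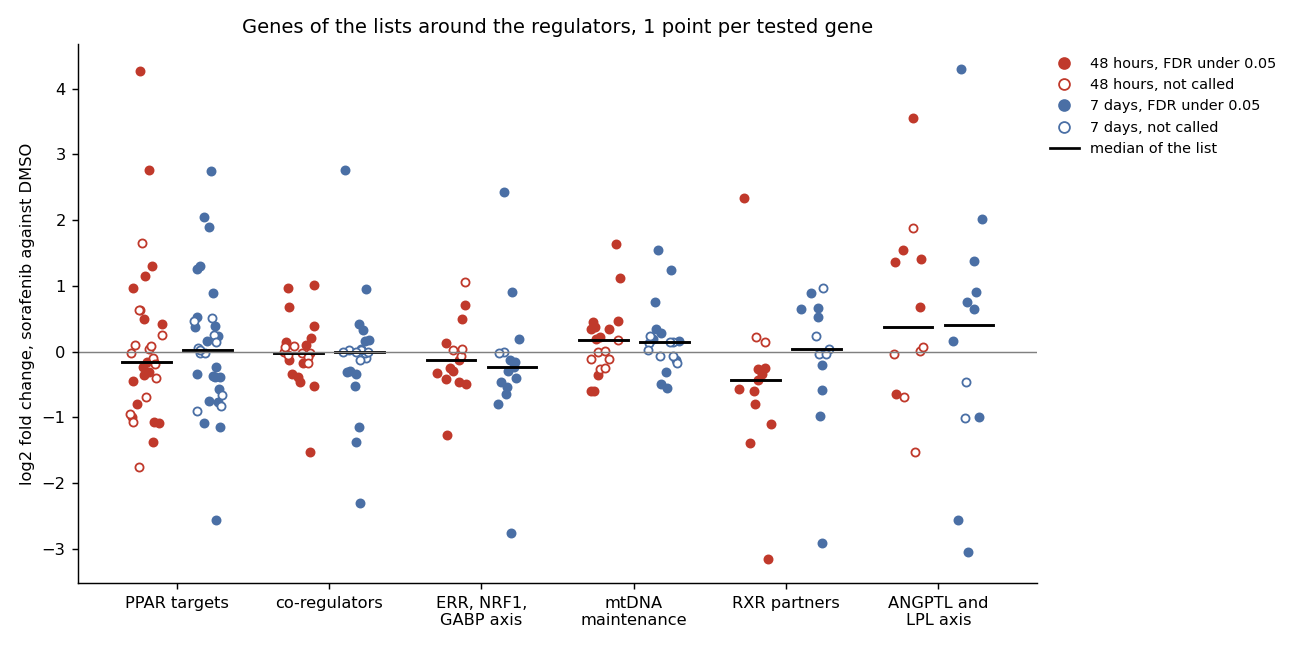
Log2 fold change of sorafenib against DMSO (y axis) for each tested gene of the 6 lists (x axis) at 48 hours in red and 7 days in blue; filled symbols passed an edgeR FDR under 0.05 and black lines are medians. Genes of each list lie on both sides of 0, and the RXR partners have the lowest median at 48 hours, −0.43.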

How the data were processed

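The 16 libraries were Illumina stranded mRNA libraries of 4 groups. Per the labels and methods, the authors aligned reads to GRCm39 with STAR 2.7.1a, and the submitters' processing notes also name featureCounts 2.0.6 and DESeq2 1.40.2. The strand setting and annotation of the counting are not given in the sources used here. The deposited values are whole-number read counts per gene, with no normalization. Nothing in the labels says that replicates were separate cultures, so p-values measure the spread between these samples only.

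Genes with fewer than 10 counts over all libraries were removed (20396, leaving 20444), as in the study's methods. The test was that of edgeR 4.0.16 in R 4.3.3 (TMM normalization, quasi-likelihood test, Benjamini-Hochberg FDR under 0.05) in 1 model of all 4 groups. Errors of fold changes are standard errors, and errors of levels are SD. Replicates differed by more than counting error, with a chi-square per gene of 1.49 to 55.0.

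The members, lists and tests were chosen with earlier results of these data known. Genes named were the 10 members, a fixed set of PPAR targets and mitochondrial factors, the 3 called genes with the largest absolute log2 fold change (mean of at least 50 normalized counts) per list and time, and the 2 most correlated genes (mean of at least 100) of each member with a mean of at least 50. Some of these genes are not reported here. Alternatives were DESeq2 1.42.0, its size factors, library totals, no filter or at least 10 counts in every library, an added absolute log2 fold change of 1, the libraries compared alone, a replicate block, limma 3.58.1 voom with quality weights, an offset for the lowered stretch, transcript in place of exon length, and each replicate left out. Positions and exon lengths are from GENCODE M39 on GRCm39.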

Additional observations from a re-analysis of the deposited data

Results flagged for a closer look

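The responses of 6 genes differed between 48 hours and 7 days by edgeR's interaction test. The difference in log2 fold change, 7 days minus 48 hours, was 0.40 for Ppard, −0.51 for Pparg, −1.26 for Ppargc1a, −0.82 for Ppargc1b, −0.17 for Nrf1 and 1.13 for Angptl4. The DMSO level of each of these 6 genes was also called different between the times. So was that of Rxra and Esrra, whose interaction was not called, and that of 49.4% of all genes.

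Single libraries stood apart from their group in 2 of 40 sets of 4 libraries, by Dixon's test at the level that chance reaches in about 1 of 20. One was Esrra in sorafenib at 48 hours, where replicate 2 had 569 normalized counts, the library with the lowered stretch that holds this gene. The other was Nrf1 in sorafenib at 7 days, where replicate 2 had 1432 normalized counts and the other libraries 1363 to 1373.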

How the results depend on the processing

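Of 480 fold changes of members under other settings, 416 kept their direction and side of the threshold, and of 800 with 1 library left out, 743 did. With an added absolute log2 fold change of at least 1, members called numbered 2 at 48 hours, 1 at 7 days, 2 for the interaction, 1 for time with DMSO and 0 for time with sorafenib, beside 3690, 4202, 1965, 2242 and 1727 of the 20444 tested genes. With that threshold the counts at 48 hours and 7 days were 7 and 8 PPAR targets, 2 and 4 co-regulators, and 1 and 2 ERR, NRF1 and GABP partners. For the other lists they were 2 and 2 mitochondrial DNA genes, 4 and 1 RXR partners, and 4 and 5 ANGPTL4 relatives. Time with sorafenib called 3 members, all lower, when only the libraries compared were fitted, beside 3582 higher and 3687 lower of 18339 genes. With 1 library left out it called 3 to 6 members. With longest-transcript lengths the ratios with DMSO at 48 hours were 22.0 (Ppard to Pparg) and 19.01 (Ppargc1b to Ppargc1a). Signs turned only for values that were not called. For time with sorafenib, Ppard was −0.0266 and Angptl4 −0.0437 with the offset, and Nrf1 was 0.0106 with DESeq2, 0.00975 with its size factors, 0.0120 with library totals, 0.0297 with at least 10 counts in every library and 0.0159 with only the libraries compared. The interaction of Esrra was 0.0576 with library totals and 0.0265 with at least 10 counts in every library, and it was called with the offset (−0.18, edgeR FDR 0.0382). Leave-one-out ranges of these were −0.00840 to 0.23 for Ppard, −0.0616 to 0.43 for Angptl4, −0.0406 to 0.00514 for Nrf1 and −0.16 to 0.0459 for Esrra. The cause was not tested.

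Deviations of same-numbered libraries correlated by −0.00825 (48 hours) and 0.0716 (7 days) on average, so the numbers were not taken as pairs. With the replicate block, 8 members were called at 48 hours, beside 5270 genes higher and 5374 lower of all 20444. At 7 days 8 were called (5566 and 5461 of all genes), and 6 for the interaction (2864 and 4123 of all genes). The added call at 7 days was Esrra (edgeR FDR 0.0389). Ppara and Angptl4 could not be tested with at least 10 counts in every library. Depth limits Ppara, with 1 to 13 counts per library.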

Other observations

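The 2 mitochondrial ribosomal RNAs, whose genes TFAM-dependent transcription covers, were looked at after the values of Tfam were seen. At 48 hours mt-Rnr2 averaged 30848 ± 9247 normalized counts (SD, n = 4) in the DMSO libraries and 23478 ± 4204 under sorafenib, and 15552 ± 8693 against 19018 ± 700 at 7 days. Those of mt-Rnr1 were 15519 ± 5616 and 10410 ± 1772, and 9119 ± 6090 and 14550 ± 544. The differences at 48 hours and at 7 days were smaller than the SD of the DMSO group at the same time. Both DMSO groups held libraries that stood apart in the share of counts in their most abundant genes. Whether those libraries set these SDs was not tested, so this comparison does not show that the groups were alike. No test was run on these RNAs, which mRNA libraries are not made to capture.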
